A study of Mus musculus with 8 samples.

Results

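A set of 10 marker genes of the early oligodendrocyte lineage was followed in striatum RNA of mice with a 16p11.2 deletion. They were taken by symbol, 10 of the 55032 genes measured, and each symbol matched 1 gene. The 5 precursor genes were Pdgfra, Cspg4, Vcan, Ptprz1 and Lhfpl3, and the 5 genes of committed or newly formed oligodendrocytes were Gpr17, Neu4, Bmp4, Enpp6 and Bcas1. Striatum was taken at postnatal day 60 from 4 WT and 4 16p11.2+/- mice, and the RNA of each mouse was sequenced as its own library. All 8 mice were female and on the C57BL/6 background, and the 16p11.2+/- mice carry the deletion on 1 chromosome in every cell, so that no cell type is singled out by the model. Mice are called here by group and number, and DF is the label of the 16p11.2+/- mice.

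Oligodendrocyte precursor cells divide in the adult brain and carry the PDGF alpha receptor and the proteoglycan NG2, the product of Cspg4. When they commit to differentiation they switch on GPR17, and as newly formed cells they express ENPP6 and BCAS1 before they build myelin. In bulk striatum most oligodendrocyte RNA comes from mature, myelinating cells, and BCAS1 RNA continues in those cells.

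The genotype was visible in the libraries. In all, 58 genes were tested within 600 kb on either side of Fam57b, a gene of the deleted segment on chromosome 7. This window may reach beyond the segment. Of the 58 genes, 17 were lower in 16p11.2+/- mice at an adjusted p under 0.05 in edgeR. Mapk3, for example, had 35.7 to 46.4 FPKM (fragments per kilobase of transcript, scaled to library size) in WT and 20.7 to 22.3 FPKM in 16p11.2+/- striatum. None of the 10 lineage genes lies on chromosome 7 (0 of 10). Gene counts summed to 15125051 to 16523429 reads in a mouse. Several libraries stood apart in markers of neighbouring tissue. The summed FPKM of 11 thalamic neuron genes was 311 in WT-1063, 301 in DF-1037, 305 in DF-1062 and 167 in DF-1018, against 36.3 to 68.0 in the other mice, and the 10 medium spiny neuron genes summed to 370 in DF-1037 and 296 in DF-1062, against 950 to 1603 in the others. The choroid plexus genes summed to 4465 FPKM in WT-1063 and 482 in WT-1015, against 8.61 to 128 elsewhere. Their part in the results was not tested, and their values are given beside each result they moved with.

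Promoters were read from RefSeq (GRCm38.p6), which held 8 of the 10 genes, as 250 bases before the start of transcription and 50 after it. Shown are those of the precursor receptor gene Pdgfra, whose change between the genotypes had the narrowest interval, of Lhfpl3, the precursor gene that varied most among the mice, and of Enpp6, a gene lower in 16p11.2+/- mice at an unadjusted p. All 3 lie on the + strand, and capitals mark the CAGCTG E-box.
Pdgfra, chr5:75152001-75152300: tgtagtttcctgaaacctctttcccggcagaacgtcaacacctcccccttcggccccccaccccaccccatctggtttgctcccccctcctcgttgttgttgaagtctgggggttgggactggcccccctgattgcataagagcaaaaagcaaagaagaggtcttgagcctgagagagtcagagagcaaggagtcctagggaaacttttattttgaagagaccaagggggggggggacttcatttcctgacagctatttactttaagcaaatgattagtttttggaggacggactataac
Lhfpl3, chr5:22745804-22746103: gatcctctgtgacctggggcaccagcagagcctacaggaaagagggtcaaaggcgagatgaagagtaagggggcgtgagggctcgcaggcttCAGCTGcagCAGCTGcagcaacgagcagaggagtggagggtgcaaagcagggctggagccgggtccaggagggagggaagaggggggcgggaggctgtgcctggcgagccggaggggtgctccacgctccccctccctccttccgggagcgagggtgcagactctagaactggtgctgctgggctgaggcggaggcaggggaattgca
Enpp6, chr8:46986637-46986936: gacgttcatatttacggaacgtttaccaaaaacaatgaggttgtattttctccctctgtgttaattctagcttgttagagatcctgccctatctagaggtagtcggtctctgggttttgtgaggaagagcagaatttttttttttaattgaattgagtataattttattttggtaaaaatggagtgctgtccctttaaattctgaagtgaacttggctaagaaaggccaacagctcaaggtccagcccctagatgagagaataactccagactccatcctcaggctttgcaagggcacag
3 motifs were searched on both strands, the E-box CAGCTG, which is its own reverse complement, the SOX core ACAAAG and the TATA box TATAAA. Among the 8 promoters 1 held the E-box (Lhfpl3, at 158 and 149 bases before the start), 0 held the SOX core and 0 held the TATA box, while 16.3%, 18.7% and 13.6% of all 32851 promoters did. The Enpp6 promoter was poor in G and C, at 40.3% (percentile 10.7 of all promoters), against 51.0% for Pdgfra and 66.0% for Lhfpl3. The Ptprz1 promoter was the richest at 71.7%.

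All 10 genes had enough counts to be tested, and none of them (0 of 10) differed between the genotypes at an adjusted p of 0.05 in edgeR's quasi-likelihood test. Over all 18294 genes that test called 0.109%, of which 0.0929% lower (17 genes) and 0.0164% higher (3 genes). These 17 lower genes were those near Fam57b described above, and no gene elsewhere was called lower. Enpp6 and Bcas1, both newly formed cell genes, were lower at an unadjusted p under 0.05 (2 of 10, against 4.32% of all genes, 2.37% lower and 1.95% higher), and no precursor gene was (0 of 5). The median log2 fold change of 16p11.2+/- over WT was 0.05 for the precursor genes, with 4 of 5 positive. For the newly formed cell genes it was -0.36, with 3 of 5 negative. That median is the value of Bcas1 itself, whose RNA continues in mature cells. The other newly formed cell genes tested, described below, had a median of -0.04. Over all genes tested the median was -0.01, and 51.8% of genes were negative. In none of the 10 genes (0 of 10) were the FPKM values of the groups without overlap, against 2.83% of all genes (1.62% lower and 1.21% higher). In bulk tissue, fewer cells of a type and less RNA per cell cannot be told apart.

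**Figure D1:**
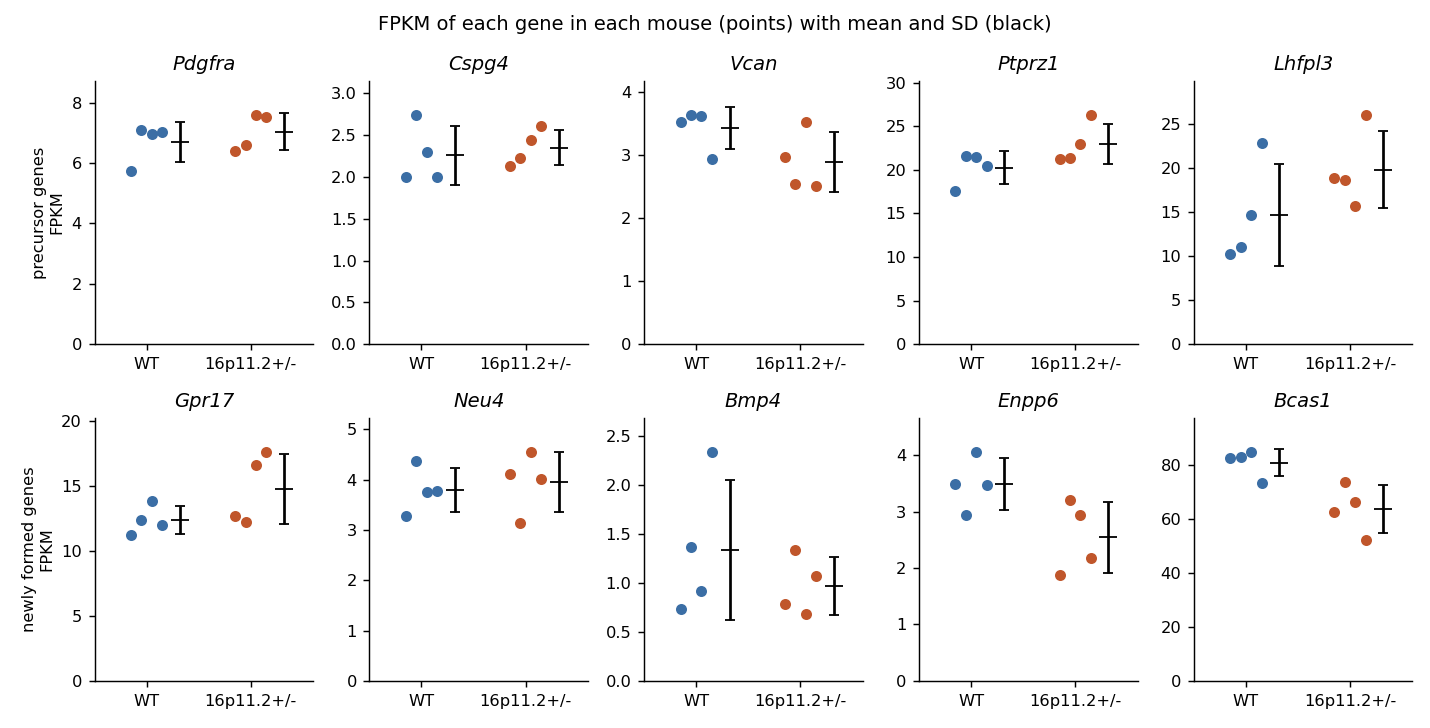
FPKM of the 5 precursor genes (top) and the 5 newly formed cell genes (bottom) in each mouse, with WT in blue, 16p11.2+/- in orange and the mean and SD of the 4 mice in black; each axis starts at 0. The groups overlap in every panel, least in Bcas1, where 3 of 4 16p11.2+/- mice lie below all WT mice.

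Pdgfra (ENSMUSG00000029231, chromosome 5, 75152292 to 75198215, + strand, GENCODE M21 on GRCm38 as for all genes here) encodes the receptor for PDGF-A, which drives precursor division and survival. It had 5.73, 7.10, 6.98 and 7.01 FPKM in WT-1015, WT-1041, WT-1061 and WT-1063 and 6.40, 6.61, 7.58 and 7.53 FPKM in DF-1018, DF-1037, DF-1059 and DF-1062. The groups overlapped, with WT-1015 low on its own and DF-1059 and DF-1062 above all WT mice. The mean was 6.70 ± 0.655 FPKM in WT and 7.03 ± 0.615 FPKM in 16p11.2+/- mice (SD, n = 4). The log2 fold change was 0.05 with a 95% interval of -0.15 to 0.25 (SE 0.09, edgeR adjusted p = 0.919), and the upper bound is a level 18.5% above WT. This interval was the narrowest of the 10.

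Cspg4 (ENSMUSG00000032911, chromosome 9, 56865033 to 56899870, + strand) encodes NG2, the surface proteoglycan of precursor cells and of pericytes. In the same order of mice it had 2.00, 2.74, 2.30 and 2.00 FPKM in WT and 2.13, 2.23, 2.44 and 2.61 FPKM in 16p11.2+/- mice. The 16p11.2+/- values lay wholly within the WT range. Between the groups the log2 fold change was 0.04 (SE 0.11, 95% interval -0.22 to 0.29, edgeR adjusted p = 0.949).

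Ptprz1 (ENSMUSG00000068748, chromosome 6, 22875502 to 23052916, + strand) encodes a receptor tyrosine phosphatase carrying chondroitin sulfate that precursors share with astrocytes. It had 17.6, 21.6, 21.5 and 20.4 FPKM in WT and 21.3, 21.4, 23.0 and 26.3 FPKM in 16p11.2+/- mice. WT-1015 was again the lowest and DF-1062 the highest of the 8, and the others lay close together between 20.4 and 23.0 FPKM. The fitted log2 fold change was 0.16 (SE 0.09, 95% interval -0.05 to 0.37, edgeR adjusted p = 0.859, exact permutation p = 0.171 on FPKM).

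Vcan (ENSMUSG00000021614, chromosome 13, 89655312 to 89742509, - strand) encodes versican, a large matrix proteoglycan. It was the precursor gene with lower values in 16p11.2+/- mice, at 3.52, 3.62, 3.62 and 2.94 FPKM in WT and 2.97, 2.53, 3.52 and 2.50 FPKM in 16p11.2+/- mice. WT-1063 stood below the other WT mice and DF-1059 above the other 16p11.2+/- mice, so that the groups overlapped. In edgeR the log2 fold change was -0.27 (SE 0.14, 95% interval -0.58 to 0.04, edgeR adjusted p = 0.859, exact permutation p = 0.114 on FPKM). It was -0.18 without DF-1062, and -0.34 without WT-1063 and -0.37 without DF-1059, the last 2 with an unadjusted edgeR p of 0.0388 and 0.0156.

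Lhfpl3 (ENSMUSG00000106379, chromosome 5, 22746059 to 23275597, + strand) encodes a tetraspan membrane protein whose RNA marks precursor cells. It had 10.3, 11, 14.6 and 22.8 FPKM in WT and 18.9, 18.6, 15.7 and 26 FPKM in 16p11.2+/- mice. The WT mice were widely spread, WT-1063 lay above 3 of the 4 16p11.2+/- mice, and the other WT mice lay below all 16p11.2+/- mice. The log2 fold change was 0.41 (SE 0.25, 95% interval -0.16 to 0.97, edgeR adjusted p = 0.859, exact permutation p = 0.171 on FPKM). Without WT-1063 it was 0.69, with an edgeR p of 0.00472 before and an adjusted p of 0.512 after correction. Exons of A930003O13Rik on the other strand cover 17.6% of the Lhfpl3 exon length. That gene had 14 to 45 counts against 500 to 1379 for Lhfpl3, and the strand setting of the counting is not given in the sources used here.

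Lhfpl3 and Vcan separated the mice by their level of thalamic neuron genes. When the mice were ordered by the mean log2 CPM of the thalamic genes (CPM is the count relative to library size), the widest gap lay between 4.03 and 5.68, with WT-1015, WT-1041, WT-1061 and DF-1059 below it and WT-1063, DF-1018, DF-1037 and DF-1062 above. Lhfpl3 had 10.3 to 15.7 FPKM in the 4 mice below the gap and 18.6 to 26 FPKM in the 4 above, and Vcan had 3.52 to 3.62 and 2.50 to 2.97 FPKM. The other 8 genes overlapped between these sets of mice. The sets were drawn after the values were seen and get no test. How many of all genes separate these sets of mice was not computed, so it is not known whether this separation is unusual. With the thalamic score in the fit, the log2 fold change of Lhfpl3 was 0.16 and that of Vcan -0.11. When DF-1037 and DF-1062 were left out, Vcan was at -0.07 and Lhfpl3 at 0.25.

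**Figure D2:**
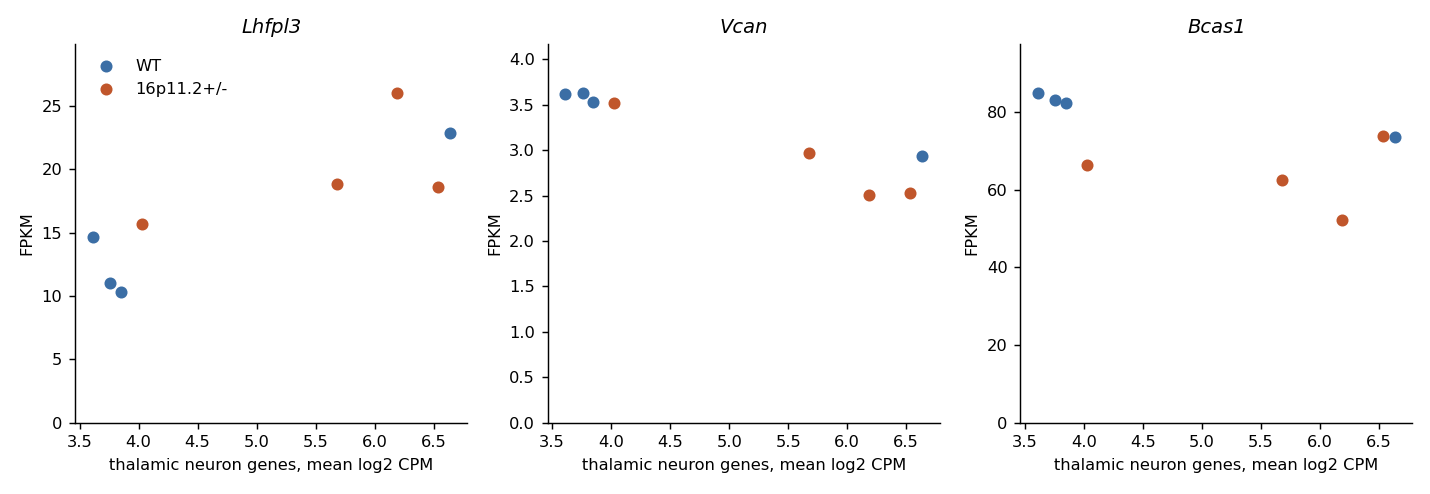
FPKM of Lhfpl3, Vcan and Bcas1 (vertical axes, from 0) against the mean log2 CPM of the 11 thalamic neuron genes (horizontal axes) in the 4 WT (blue) and 4 16p11.2+/- (orange) mice. Lhfpl3 is higher and Vcan lower in the 4 mice with a score of 5.68 or more, in both genotypes, while the Bcas1 values of the mice above and below the gap overlap.

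Among the newly formed cell genes, Gpr17 (ENSMUSG00000052229, chromosome 18, 31942997 to 31949636, - strand) encodes a G protein-coupled receptor of committed precursors that holds back their maturation. It had 11.3, 12.4, 13.9 and 12 FPKM in WT and 12.7, 12.2, 16.6 and 17.6 FPKM in 16p11.2+/- mice. DF-1059 and DF-1062 exceeded all WT mice, and the other 16p11.2+/- mice lay among them. Its log2 fold change was 0.23 (SE 0.12, 95% interval -0.04 to 0.51, edgeR adjusted p = 0.859, exact permutation p = 0.200 on FPKM).

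Neu4 (ENSMUSG00000034000, chromosome 1, 94020451 to 94028334, + strand) encodes a sialidase that trims sialic acid from glycoproteins and gangliosides. It had 3.28, 4.36, 3.76 and 3.78 FPKM in WT and 4.12, 3.13, 4.55 and 4.02 FPKM in 16p11.2+/- mice. The groups were interleaved, with DF-1037 the lowest and DF-1059 the highest of all 8. The fitted log2 fold change was 0.04 (SE 0.14, 95% interval -0.27 to 0.35, edgeR adjusted p = 0.953).

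Bmp4 (ENSMUSG00000021835, chromosome 14, 46383520 to 46390669, - strand) encodes a secreted ligand that slows oligodendrocyte maturation. It was the lowest of the 10, with 25 to 85 counts per mouse, and had 0.735, 1.36, 0.923 and 2.34 FPKM in WT and 0.788, 1.33, 0.684 and 1.08 FPKM in 16p11.2+/- mice. WT-1063 was far above the rest, and the remaining values of the groups were interleaved. WT-1063 also had the highest sums of thalamic (311 FPKM) and choroid plexus genes (4465 FPKM). Its fibroblast genes summed to 10.6 FPKM, against 3.13 to 4.94 FPKM in the other mice. The part of these tissues in the Bmp4 values was not tested. Over the 8 mice the log2 fold change was -0.49 (SE 0.38, 95% interval -1.35 to 0.37, edgeR adjusted p = 0.859). It was -0.08 without WT-1063, and -0.86 with the thalamic score in the fit, with an edgeR p of 0.0102 before and an adjusted p of 1 after correction.

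Enpp6 (ENSMUSG00000038173, chromosome 8, 46986887 to 47096762, + strand) encodes a choline-specific phosphodiesterase that marks oligodendrocytes just after they form. It had 3.49, 2.93, 4.05 and 3.46 FPKM in WT and 1.87, 3.21, 2.94 and 2.17 FPKM in 16p11.2+/- mice. DF-1018 and DF-1062 lay below all WT mice, and DF-1037 and DF-1059 lay above WT-1041. The mean was 3.48 ± 0.458 FPKM in WT and 2.55 ± 0.629 FPKM in 16p11.2+/- mice (SD, n = 4). In edgeR the log2 fold change was -0.47 (SE 0.19, 95% interval -0.90 to -0.05), with an edgeR p of 0.0330 before and an adjusted p of 0.859 after correction, and the exact permutation p on FPKM was 0.0857. The unadjusted edgeR p stayed under 0.05 in 3 of the 8 fits that leave out 1 mouse, and it was 0.0725 with either the thalamic or the medium spiny neuron score in the fit. Without DF-1037 and DF-1062 together the log2 fold change was -0.53, with an edgeR p of 0.0350 before and an adjusted p of 0.995 after correction.

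Bcas1 (ENSMUSG00000013523, chromosome 2, 170346991 to 170427845, - strand) encodes a protein of early myelinating and mature oligodendrocytes. Its level was the highest of the 10, at 82.5, 83.0, 84.8 and 73.5 FPKM in WT and 62.6, 73.7, 66.3 and 52.3 FPKM in 16p11.2+/- mice. Only DF-1037 and WT-1063 crossed, by a narrow margin, and the remaining 16p11.2+/- mice lay below all WT mice. The mean was 80.9 ± 5.09 FPKM in WT and 63.7 ± 8.92 FPKM in 16p11.2+/- mice (SD, n = 4). The log2 fold change was -0.36 (SE 0.12, 95% interval -0.65 to -0.08), with an edgeR p of 0.0178 before and an adjusted p of 0.859 after correction, and the exact permutation p on FPKM was 0.0571, where 4 mice against 4 allow no p under 0.0286. The unadjusted p stayed under 0.05 in 8 of the 8 fits that leave out 1 mouse. Without DF-1037 and DF-1062 together the change was -0.32, with an edgeR p of 0.00776 before and an adjusted p of 0.995 after correction. The unadjusted p was above 0.05 with a neuron marker score in the fit, at 0.0607 with the thalamic score (log2 fold change -0.30) and 0.0588 with the medium spiny neuron score (-0.30), so that with the latter score 0 of the 5 newly formed cell genes had an unadjusted p under 0.05 in edgeR. Bcas1os1 and Bcas1os2 on the other strand overlap 12.6% of its exon length and had at most 33 counts, against at least 3262 for Bcas1.

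**Figure D3:**
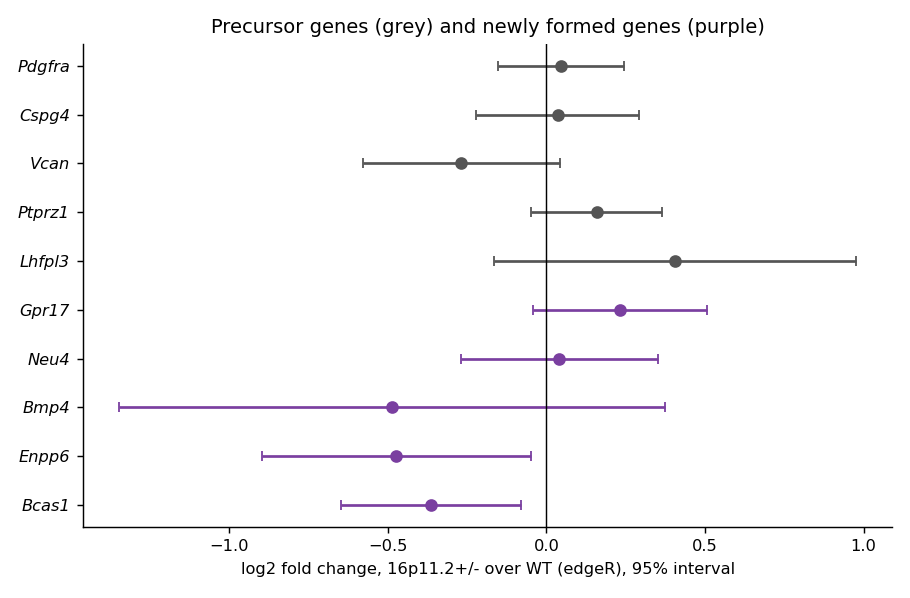
Log2 fold change of 16p11.2+/- over WT (points) with 95% intervals (bars) from edgeR for the precursor genes (grey) and the newly formed cell genes (purple). The intervals of Enpp6 and Bcas1 lie below 0 before correction for the 18294 genes tested, and those of the other 8 genes include 0.

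Per length of transcript, the mean FPKM over the 8 mice ran from Bcas1 (72.3) through Ptprz1 (21.6), Lhfpl3 (17.2), Gpr17 (13.6), Pdgfra (6.87), Neu4 (3.88), Vcan (3.15), Enpp6 (3.02) and Cspg4 (2.30) to Bmp4 (1.16). Only Bcas1 and Ptprz1, Gpr17 and Pdgfra, and Pdgfra and Neu4 were neighbours in this order whose ranges did not overlap. Bcas1 made up 67.8% to 81.5% of the summed FPKM of the newly formed cell genes, so that sum (77.2 to 107 FPKM) mostly followed Bcas1. The sum of the precursor genes was 39.1 to 55.2 FPKM in WT and 51.4 to 64.9 FPKM in 16p11.2+/- mice, and it mostly followed Ptprz1 and Lhfpl3.

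The newly formed cell genes did not move as a block across the mice. DF-1062 had the highest Gpr17 and the lowest Bcas1 of the 8 mice, and the second lowest Enpp6. The FPKM of Bcas1 over that of Gpr17 was 7.32, 6.71, 6.12 and 6.13 in WT and 4.92, 6.02, 4.00 and 2.97 in 16p11.2+/- mice. All 16p11.2+/- mice lay below all WT mice in this ratio, narrowly so for DF-1037. The FPKM of Enpp6 over Gpr17 was 0.309, 0.237, 0.292 and 0.289 in WT and 0.147, 0.262, 0.177 and 0.123 in 16p11.2+/- mice, with DF-1037 above WT-1041. Neither Bcas1 nor Gpr17 separated the groups alone. The ratios were chosen after the values were seen and are descriptions, without a test. How many ratios of other gene pairs separate the groups was not computed, so it is not known whether this separation is unusual.

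**Figure D4:**
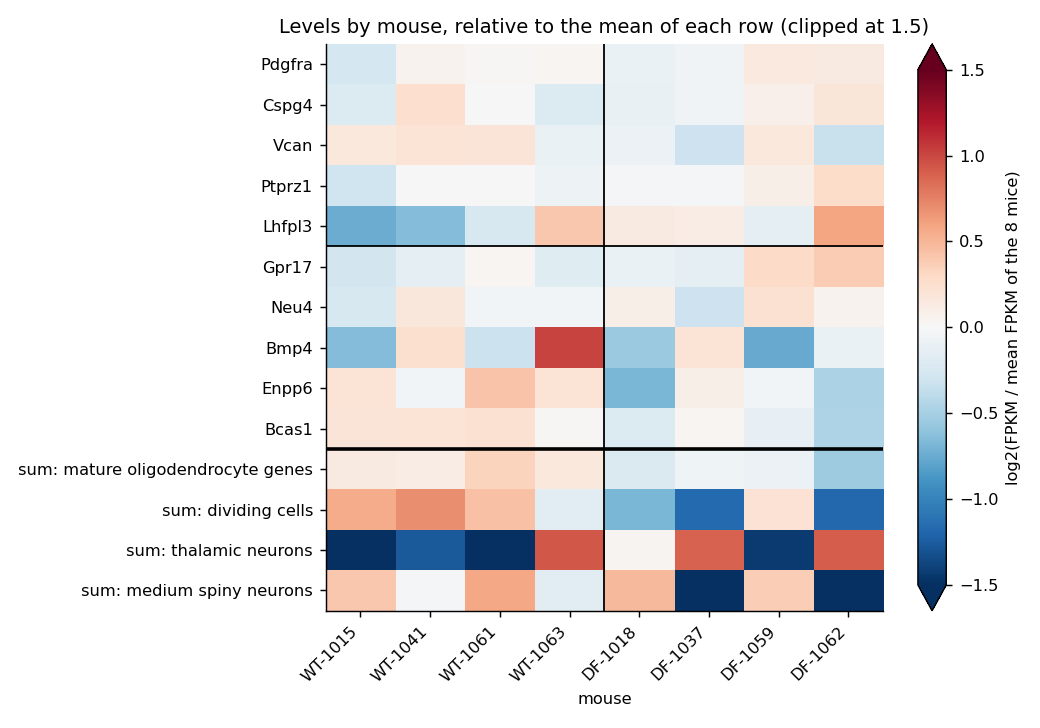
Level of each lineage gene and of 4 summed marker lists in each mouse (columns), as log2 of FPKM over the mean of the 8 mice (colour, clipped at 1.5), with precursor genes, newly formed cell genes and lists separated by lines. DF-1062 combines high Ptprz1, Lhfpl3 and Gpr17 with low Vcan, Enpp6 and Bcas1, and has the lowest sum of mature oligodendrocyte genes.

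The genes of the neighbouring stages were set beside these 10. Of 21 other precursor genes, 0 passed the adjusted and 0 the unadjusted threshold in edgeR, and their median log2 fold change was 0.03, with 10 negative and 11 positive. The 3 with the lowest p were Tnr, a matrix protein of precursors (12.3 ± 1.34 against 14.3 ± 1.72 FPKM in WT and 16p11.2+/- mice), Lnx1, a ubiquitin ligase (3.35 ± 1.14 against 4.87 ± 1.72 FPKM), and Megf11, a membrane protein with EGF-like repeats (3.20 ± 0.883 against 4.06 ± 1.1 FPKM; SD, n = 4 each). The lineage factors Olig1 (log2 fold change -0.07, SE 0.09), Olig2 (-0.01, SE 0.10) and Sox10 (-0.22, SE 0.20) were in this list.

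Of 18 other newly formed cell genes 16 could be tested, and Casr and Gp1bb could not. Their median was -0.04, with 9 negative, and 0 passed either threshold in edgeR. Ust, a sulfotransferase for chondroitin and dermatan sulfate, had 7.01 to 8.01 FPKM in WT and 3.92 to 7.45 FPKM in 16p11.2+/- mice (log2 fold change -0.37, SE 0.19, an edgeR p of 0.0824 before and an adjusted p of 0.859 after correction). 9630013A20Rik (-0.47, SE 0.34) and Kif19a (-0.26, SE 0.23) had the next lowest p. Tcf7l2, a factor of newly formed oligodendrocytes that thalamic neurons also express, had 1.04 to 18.2 FPKM in WT mice alone.

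The 18 mature oligodendrocyte genes were all negative (18 of 18), with a median of -0.39. In edgeR 10 of them were lower at an unadjusted p under 0.05 (2.37% of all genes were), and 0 at an adjusted p of 0.05, where DESeq2 called 1. The count of 10 was 5 without WT-1061, 5 with the thalamic and 5 with the medium spiny neuron score in the fit. It was 13 without DF-1037 and DF-1062 together. Hapln2, a link protein of nodes of Ranvier, had the lowest p of the list, at 25.4 to 27.8 FPKM in WT and 18.2 to 21.6 FPKM in 16p11.2+/- mice without overlap (log2 fold change -0.43, SE 0.09, edgeR adjusted p = 0.576). Cldn11, the tight junction protein of myelin, had 136 ± 11.8 FPKM in WT and 95.5 ± 15.7 FPKM in 16p11.2+/- mice, and Mog, a surface protein of myelin, had 63.4 ± 8.15 and 46.5 ± 7.41 FPKM (SD, n = 4). The summed level was 2318 to 2695 FPKM in WT and 1475 to 2046 FPKM in 16p11.2+/- mice, and DF-1062 had the lowest value, as for Bcas1. When the mean log2 CPM of these genes entered the fit, the log2 fold change of Bcas1 was -0.08, that of Enpp6 -0.01 and that of Gpr17 0.09. The score itself was lower in 16p11.2+/- mice (6.48 to 7.03, against 7.01 to 7.34 in WT), so that score and genotype cannot be told apart in this fit.

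**Figure D5:**
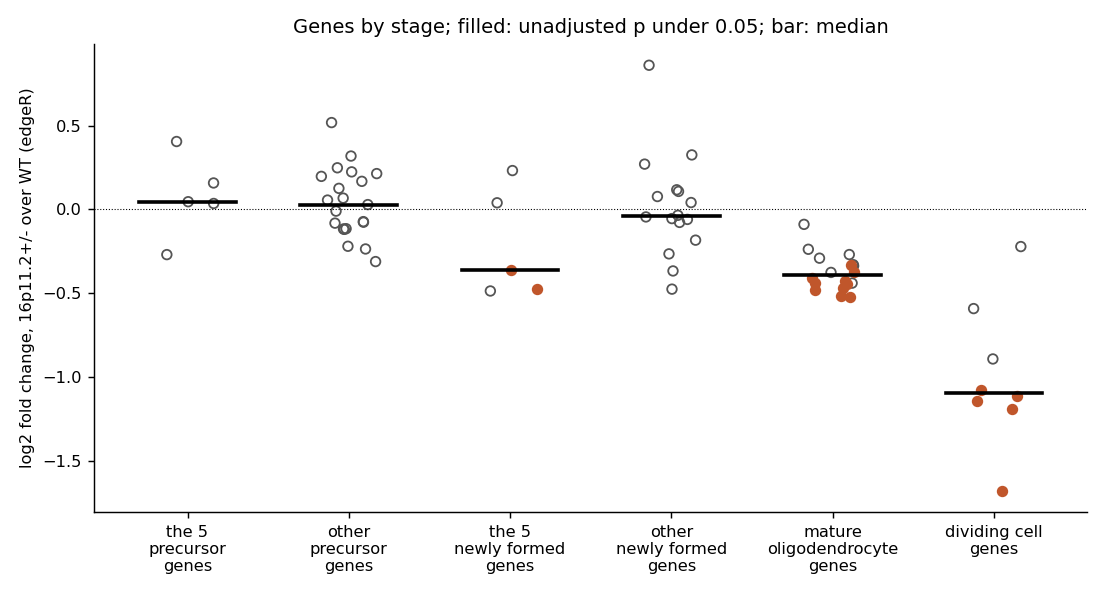
Log2 fold change of 16p11.2+/- over WT (edgeR, vertical axis) for each gene tested of 6 lists along the lineage, with filled points for an unadjusted p under 0.05 and a bar at the median. The medians are 0.05 and 0.03 for the precursor lists, -0.36 and -0.04 for the newly formed lists, -0.39 for the mature oligodendrocyte genes and -1.09 for the dividing cell genes.

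Since precursors are the main dividing cells of the adult striatum outside the subventricular zone, genes of dividing cells were examined as well. All 8 of 8 were negative, with a median of -1.09, and 5 (Mki67, Top2a, Ccnb1, Cdk1 and Pbk) were lower at an unadjusted p under 0.05 in edgeR (2.37% of all genes were), with 0 at an adjusted p of 0.05. This count changed with every mouse left out. It was 1 without WT-1015, 2 without WT-1041 or DF-1037, 3 without WT-1061, DF-1018 or DF-1062, and 7 without WT-1063 or DF-1059. The median in these fits ran from -0.84 (without DF-1062) to -1.38 (without DF-1059), with at least 7 of the 8 genes negative. Their levels were low, with sums of 4.76, 5.25, 4.39 and 2.91 FPKM in WT and 2.02, 1.45, 3.78 and 1.44 FPKM in 16p11.2+/- mice. Only 3 of the 8 genes had at least 10 counts in every mouse, and the median of these 3 was -1.08. The 4 mice with the lowest sums were the 4 with high thalamic genes. Mki67, a marker of cycling cells, had 0.467 to 0.953 FPKM in WT and 0.199 to 0.611 FPKM in 16p11.2+/- mice, and Cdk1, the mitotic kinase, had 0.161 to 0.228 and 0.0491 to 0.112 FPKM without overlap. Without DF-1037 and DF-1062 the median was -0.59 and 1 of the 8 genes had an unadjusted p under 0.05, and with the thalamic score in the fit the median was -0.68 with 4 such genes. The 6 genes of subventricular progenitors and neuroblasts had a median of -0.10, with 5 of 6 negative and 0 at an unadjusted p under 0.05 in edgeR. They ran from -1.01 (Igfbpl1, SE 0.54) to 0.04 (Sox11, SE 0.16). Their sums were 27.9, 30.3, 19.1 and 18.5 FPKM in WT and 18.1, 17.7, 25.8 and 29.5 FPKM in 16p11.2+/- mice. Which cells carried the RNA of the dividing cell genes was not tested.

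Ligands, partners and relatives of the 10 genes gave no call at an adjusted p of 0.05 in edgeR in any of 8 families. The counts and medians of each family include the gene of the 10 around which the family was listed. In the PDGF family 5 of 6 genes were negative (median -0.15). Pdgfc had the lowest p, at 1.75 ± 0.217 FPKM in WT and 1.41 ± 0.254 FPKM in 16p11.2+/- mice, and Pdgfa, the main ligand for precursors, had 9.54 ± 1.62 and 8.60 ± 2.08 FPKM (SD, n = 4). In the BMP pathway 18 of 25 genes were negative (median -0.11), and Acvr1, a type I receptor, was lower at an unadjusted p (log2 fold change -0.35, SE 0.15, an edgeR p of 0.0480 before and an adjusted p of 0.859 after correction). Bmp6 (-0.97, SE 0.48) and Smad9 (0.39, SE 0.21) followed by p, and Bmp6 ranged from 1.97 to 7.95 FPKM within WT.

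Around versican, the lecticans and their partners had 5 of 9 genes negative (median -0.06), with Hapln2 the gene at an unadjusted p under 0.05. Hapln4, a link protein of inhibitory synapses, had 12.4 ± 5.16 FPKM in WT and 21.3 ± 9.32 FPKM in 16p11.2+/- mice (SD, n = 4). The group around Ptprz1 had 3 of 7 genes negative (median 0.12), with 0 at an unadjusted p under 0.05 in edgeR, and the ligand gene Ptn had 80.4 to 90.8 FPKM in WT and 65.7 to 87.3 FPKM in 16p11.2+/- mice. Of the LHFPL family 5 genes were tested, with 4 positive and 0 at an unadjusted p under 0.05 in edgeR. The family median of 0.41 is the value of Lhfpl3 itself. Its relatives Lhfpl5 (log2 fold change 0.68, SE 0.41) and Lhfp (0.47, SE 0.47) had values as far from 0 as Lhfpl3, but varied widely among mice. Lhfpl5 had 1.11 to 1.45 FPKM in WT and 1.12 to 4.46 FPKM in 16p11.2+/- mice, and Lhfp had 2.47 to 9.63 FPKM within WT.

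Among receptors related to Gpr17, 4 of 6 tested were negative (median -0.15), and Cysltr1, a cysteinyl leukotriene receptor, was lower at an unadjusted p (0.307 ± 0.104 against 0.187 ± 0.0170 FPKM, an edgeR p of 0.0245 before and an adjusted p of 0.859 after correction). P2ry12, a receptor of microglia, had 14.8 ± 2.96 and 12.1 ± 2.97 FPKM. The 4 sialidases had a median of -0.01, with Neu2 at -0.56 (SE 0.40) and Neu1, the lysosomal enzyme, at 0.10 (SE 0.13), and 0 at an unadjusted p under 0.05 in edgeR. The 5 tested ENPP genes were all negative (5 of 5, median -0.20). Besides Enpp6, Enpp2 was lower at an unadjusted p (log2 fold change -2.22, SE 0.82, an edgeR p of 0.0248 before and an adjusted p of 0.859 after correction). It had 50.3 to 731 FPKM in WT and 39.3 to 76.8 FPKM in 16p11.2+/- mice. The highest Enpp2 value was in WT-1063, which also had the highest sum of choroid plexus genes. The part of that tissue in the Enpp2 values was not tested. Enpp4 had a log2 fold change of -0.20 (SE 0.18).

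Across the 10 genes, WT-1015 was the lowest WT mouse in 6 (Pdgfra, Ptprz1, Lhfpl3, Gpr17, Neu4 and Bmp4), and DF-1062 was the highest of all mice in 3 and the lowest in 2. The mean log2 CPM of the precursor genes was 5.86 in WT-1015 and 6.03 to 6.19 in the other 7 mice. For the newly formed cell genes it was 4.71 to 5.03 in WT and 4.59 to 4.81 in 16p11.2+/- mice.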

How the data were processed

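RNA of the striatum of 4 WT and 4 16p11.2+/- mice was analysed, with groups and mouse numbers taken from the labels. The authors trimmed low quality and adapter sequences, aligned with Hisat2 2.1.0 and ran Htseq-count, and they deposited a raw count for 55032 genes per mouse. Each deposited FPKM equals that count scaled by gene length and library total, and 96.2% of 20391 lengths equalled those of GENCODE M21 (within 1 base or 0.1%). The submitters' processing notes name Bowtie 0.12.2 and the builds mm8 and mm9 instead, and the build and strand setting used for these files are not given in the sources used here. Positions are therefore those of GENCODE M21. The deposited table of the authors' own DESeq2 1.28.1 comparison (group means, fold changes and p-values) and a summary of FPKM in bins were not used.

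The main test was edgeR 4.0.16 (R 4.3.3, TMM, filterByExpr with minimum count 10 and minimum total 15, quasi-likelihood test), with Benjamini-Hochberg adjustment over all 18294 genes tested and a threshold of 0.05. Nothing in the labels ties the mice to litters, so p-values measure the spread between these mice. FPKM was compared by exact two-sided permutation over the 70 assignments of 8 mice. Scores average log2 CPM over a list (prior count 2). The 10 genes, the lists and the rule for naming genes (all 10, the 3 lowest p of each stage and family list, the 5 genes most alike each stage) were chosen with earlier results of these data known. The genes of the deleted segment and the olig factors were named in addition. Alternatives were DESeq2 1.42.0, limma 3.58.1 (voom, and trend on log2 FPKM with pseudocounts 1 and 0.1), RLE factors, library totals, no filter or 10 counts in every mouse, thalamic and mature oligodendrocyte scores as covariates and each mouse left out. A medium spiny neuron score as covariate, and DF-1037 and DF-1062 left out together, were chosen after seeing the data. The code was tested on simulated counts with 200 changed genes.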

Additional observations from a re-analysis of the deposited data

Results flagged for a closer look

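In groups of 4 mice, 2 of 24 group values held a mouse far from the other 3, where chance gives about 1 in 20. The first was Pdgfra in WT mice, where WT-1015 had 5.73 FPKM and the others 6.98 to 7.10, so that the gap took up 0.907 of the range. The second was Vcan in WT mice, where WT-1063 had 2.94 FPKM and the others 3.52 to 3.62, a gap of 0.855 of the range. WT-1015 was also the lowest WT mouse in Ptprz1, Lhfpl3, Gpr17, Neu4 and Bmp4, and WT-1063 had the most thalamic and choroid plexus RNA of the WT mice.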

How the results depend on the processing

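None of the 10 genes passed an adjusted p of 0.05 under any of 20 alternatives, with adjusted p between 0.512 and 1. The sign of 7 genes was the same throughout. Pdgfra turned to -0.010 without WT-1015 (range over the 8 fits that leave out 1 mouse -0.010 to 0.083). Cspg4 turned to -0.12 with the mature oligodendrocyte score, to -0.0052 without WT-1015 and to -0.021 without WT-1063 (highest 0.14 over all alternatives). Neu4 turned to -0.091 with that score, to -0.012 without WT-1015 and to -0.029 without DF-1059 (highest 0.14 with 1 mouse left out, and 0.20 without DF-1037 and DF-1062). The median of the newly formed cell genes was -0.21 by limma on log2(FPKM + 1), whose pseudocount shrinks low genes, -0.075 with the mature oligodendrocyte score, and between -0.44 and -0.079 when 1 mouse was left out, the latter without WT-1063, where Bmp4 was the middle gene. That of the precursor genes lay between -0.0052 (without WT-1015) and 0.14 over the same 8 fits. With 1 mouse left out, 0 to 3 genes were without overlap in FPKM: Enpp6 without WT-1041 (5.24% of all genes), Bcas1 without DF-1037 (6.81%), and Vcan, Lhfpl3 and Bcas1 without WT-1063 (10.2%), against 2.83% with all mice. Lhfpl3 and Vcan, by contrast, came nearer to 0 without DF-1037 and DF-1062 (0.25 and -0.07). Unadjusted edgeR p crossed 0.05 downward for Gpr17 (0.0483 with the thalamic score, 0.0252 without DF-1037), Vcan (0.0388 without WT-1063, 0.0156 without DF-1059), Lhfpl3 (0.00472 without WT-1063) and Bmp4 (0.0102 with the thalamic score), and upward for Bcas1 and Enpp6 with each of the 3 scores (0.0588 to 0.967) and for Enpp6 in 5 of 8 fits without 1 mouse. The mature oligodendrocyte genes lower at an unadjusted p numbered 5 to 14 with 1 mouse left out, the highest without DF-1037. The causes were not tested. No paired analysis was possible because the labels number no replicates across genotypes. Bmp4 had the lowest counts of the 10 genes, 25 to 85 per mouse.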

Other observations

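Levels of other cell types were read from fixed marker lists, none of which held a gene past an adjusted p of 0.05 in edgeR. Astrocyte genes had a median log2 fold change of 0.08, with 6 of 8 positive and sums of 392 to 473 FPKM in WT and 375 to 467 FPKM in 16p11.2+/- mice. Gfap, the astrocyte filament protein, went the other way within this list (-0.39, SE 0.19). Microglia genes had a median of -0.11 with 6 of 8 negative, endothelial genes -0.03 with 5 of 6 negative, pericyte and smooth muscle genes, whose cells share Cspg4 with precursors, -0.03 with 5 of 8 negative, and the fibroblast genes tested -0.23 with 5 of 7 negative. In these 5 lists 0 genes had an unadjusted p under 0.05 in edgeR. Cortical glutamatergic neuron genes had a median of -0.51 with 5 of 7 negative, and their sums ranged from 21.6 to 175 FPKM among 16p11.2+/- mice. The medium spiny neuron genes were negative in 10 of 10 (median -0.53) and the thalamic neuron genes positive in 11 of 11 (median 0.76), in both cases with 0 at an unadjusted p under 0.05 in edgeR. The 6 tested choroid plexus genes were all negative (median -2.74), and 3 of them (Ttr, Kl and Sostdc1) had an unadjusted edgeR p under 0.05. The WT mean of these rests on WT-1063, where Ttr had 4273 FPKM.

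Among 12984 genes with a mean log2 CPM of at least 2, those whose levels over the 8 mice were most like the mean of the precursor genes were Pigf (Pearson's r = 0.980), Fgfr3 (0.974), Evl (0.955), Pcyox1 (0.949) and D230017M19Rik (0.939). For the newly formed cell genes they were Rps9 (0.972), B3gnt9 (0.937), Ccdc107 (0.921), Wdr91 (0.918) and Rpl7 (0.916). These values are the highest of many over the same 8 libraries and describe likeness only. Fgfr3, a receptor of astrocytes and of some precursors, ranged from 12.9 to 22.4 FPKM.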
